A study of Arabidopsis thaliana with 24 samples.

Results

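The genes described here are 45 nuclear genes for photosystem I and II, their light-harvesting antennas and Rubisco, out of 33020 loci in the expression table. They were taken by name, with earlier results of these data known: 4 LHCA genes of the photosystem I antenna, 9 LHCB1, LHCB2 and LHCB3 genes of the trimeric photosystem II antenna, 5 LHCB4, LHCB5 and LHCB6 genes of the minor photosystem II antenna, 12 PSA genes, 10 PSB genes, and the 4 RBCS genes with RCA. All 45 loci were in the table and all 45 passed the filter on low values, a mean of at least 1 FPKM (fragments per transcript length and library size) over the 24 libraries. RNA came from intact Arabidopsis thaliana seedlings, 6 days old, of the mutants pif7, asf1ab and hira and of Col-0 (WT). Every genotype was sequenced after 1 hr of shade at a red to far-red ratio of 0.4 and in white light without shade, with 3 libraries in each of the 8 groups. The shaded groups are thus pif7, asf1ab, hira and WT in shade, and each has its own white-light group. The sources used here give neither the alleles nor whether the libraries of a group came from separate cultures, so p-values measure the spread between these libraries only.

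The antenna proteins bind chlorophyll and pass light energy to the reaction centres of the photosystems, and LHCB1, LHCB2 and LHCB3 build the trimers of light-harvesting complex II. PSA and PSB genes encode nuclear subunits of photosystem I and II, whose core proteins are made in the plastid. RBCS genes encode the small subunit of Rubisco, the enzyme that fixes CO2, and RCA encodes Rubisco activase. These genes are known for strong expression in green tissue and for control by light, by the circadian clock and by the state of the plastid. PIF7 is a bHLH factor that phytochrome B holds back in white light and that drives shade-induced transcription. ASF1A and ASF1B are histone H3-H4 chaperones, and HIRA is a chaperone that deposits histone H3.3.

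The step size of low FPKM values gave a rough estimate of 13450000 to 18550000 reads per library. It is rough because the share of values on whole-read steps exceeded the share expected without steps by only 0.083 to 0.129. It also used annotated exon lengths, and the lengths behind the FPKM are not known. Ribosomal RNA took 0.724 to 8.322% of the summed FPKM and plastid-encoded transcripts 0.505 to 2.987%. Replicates 1 and 2 of white-light hira were highest in both, with 8.322 and 7.271% ribosomal RNA and 2.498 and 2.987% plastid transcripts, against 3.216 and 1.419% in replicate 3. PIF7 itself read 0.72 to 1.7 FPKM in white-light pif7 and 24.77 to 33.56 FPKM in the white-light libraries of the other genotypes. ASF1B read 1.74 to 2.09 FPKM in white-light asf1ab and 8.11 to 10.62 FPKM in white-light WT. ASF1A read 8.8, 9.95 and 9.92 FPKM in white-light asf1ab against 13.37, 13.17 and 12.16 FPKM in white-light WT, but 12.06, 15.84 and 16.41 FPKM in shaded asf1ab against 13.31, 12 and 12.43 FPKM in shaded WT (0.21 ± 0.098, adjusted p = 0.135), so its level does not check that mutation in shade. HIRA read 4.81, 4.76 and 4.13 FPKM in shaded hira against 4.59, 5.2 and 4.72 FPKM in shaded WT, so its level does not check its mutation either. Markers of root tissue such as CASP1 (5.35 to 25.17 FPKM) were present, while the root tip gene PLT1 did not exceed 0.51 FPKM.

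Several libraries stood apart for the 45 genes within their own group. Replicate 3 of white-light pif7 had the lowest value of the 3 libraries for 41 of the 45 genes, with a median ratio of 0.65 to the mean of the other 2. Replicate 3 of white-light hira was lowest for 38 genes, with a median ratio of 0.71, and replicate 3 of white-light WT was lowest for 38 genes, with a median ratio of 0.88. Replicate 3 of white-light asf1ab was lowest for 28 genes, with a median ratio of 0.93, so that the low library had the same number in all 4 genotypes in white light. In shade no replicate number was the lowest for most genes in all 4 genotypes. The white-light groups of pif7 and hira therefore spread more widely than their shaded groups, and each count that rests on them is given with and without these libraries.

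Some of the genes are near-identical copies, which bears on how far one locus can be told from the next. LHCB1.2, LHCB1.1 and LHCB1.3 lie side by side on chromosome 1 between 10472280 and 10479114, and LHCB1.5 and LHCB1.4 lie side by side on chromosome 2 between 14522524 and 14525918 (TAIR10.1). Over their coding sequences, LHCB1.1, LHCB1.2 and LHCB1.3 were 95.7 to 96.4% identical, and LHCB1.4 and LHCB1.5 were 91.6% identical. A coding stretch of 100 bases from RefSeq's TAIR10.1 shows how little separates the 5 copies; capitals mark the 8 positions at which they differ.
LHCB1.1: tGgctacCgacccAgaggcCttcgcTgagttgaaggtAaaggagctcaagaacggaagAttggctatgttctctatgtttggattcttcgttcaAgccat
LHCB1.2: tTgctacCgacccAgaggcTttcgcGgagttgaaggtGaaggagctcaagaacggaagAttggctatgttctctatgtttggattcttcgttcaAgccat
LHCB1.3: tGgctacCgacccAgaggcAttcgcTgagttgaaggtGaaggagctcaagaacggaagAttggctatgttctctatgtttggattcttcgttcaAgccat
LHCB1.4: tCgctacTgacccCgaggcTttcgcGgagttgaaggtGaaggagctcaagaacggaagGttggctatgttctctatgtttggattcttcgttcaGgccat
LHCB1.5: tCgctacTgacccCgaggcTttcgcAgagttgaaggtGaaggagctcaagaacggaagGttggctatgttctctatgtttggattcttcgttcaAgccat
The RBCS genes show the same arrangement. RBCS3B, RBCS2B and RBCS1B form a tandem cluster on chromosome 5 between 15376988 and 15385320 and were 96.7 to 97.3% identical, whereas RBCS1A on chromosome 1 was 90.2 to 90.5% identical to them. In the stretch of 100 coding bases shown next, capitals mark the 6 differing positions, and RBCS1B and RBCS3B carry the same letters throughout.
RBCS1A: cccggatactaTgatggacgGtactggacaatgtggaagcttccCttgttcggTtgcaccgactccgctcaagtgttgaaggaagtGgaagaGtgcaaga
RBCS1B: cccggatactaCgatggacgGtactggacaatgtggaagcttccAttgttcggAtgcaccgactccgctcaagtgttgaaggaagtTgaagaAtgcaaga
RBCS2B: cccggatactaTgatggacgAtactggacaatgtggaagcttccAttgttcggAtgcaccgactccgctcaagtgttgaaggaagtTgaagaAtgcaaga
RBCS3B: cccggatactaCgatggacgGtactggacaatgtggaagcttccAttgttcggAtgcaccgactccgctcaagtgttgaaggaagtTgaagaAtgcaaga
Stretches of 100 identical bases shared with another of the 45 genes were found in 9 genes and covered at most 12.4% of a gene's windows, and stretches of 50 bases in 11 genes with at most 28.2%. The sources used here do not say how reads matching several copies were counted, so LHCB1, LHCB2 and RBCS are also given as sums over their copies.

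In level, these genes were among the most abundant of the seedling. FPKM is scaled by gene length and library size, so levels can be set side by side between genes. RBCS1A (AT1G67090) had the highest mean of all 19126 genes tested, 15960 FPKM over the 24 libraries, followed by LHCB1.3 (AT1G29930) with 15622 FPKM and RBCS3B (AT5G38410) with 11609 FPKM. PSBR (AT1G79040), a small photosystem II subunit, was the fourth gene with 11430 FPKM. Of the 45 genes, 33 were among the top 50 genes tested and 42 among the top 100. The lowest was LHCB4.3 (AT2G40100), an isoform of the minor antenna protein CP29, with a mean of 41.3 FPKM. Together the 45 genes made up 13.21 to 23.8% of the summed FPKM of a library. That share was 13.21, 13.77 and 14.04% in shaded pif7, the lowest of all groups, against 20.9, 19.99 and 15.8% in white-light pif7. In WT it was 17.67, 18.98 and 20.01% in shade and 17.04, 17.73 and 15.73% in white light, which overlap. Because FPKM is a share of a library, a lower level of such abundant genes raises the values of all others, and fewer green cells cannot be told apart from less RNA per cell.

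LHCB1.5 (AT2G34420) has to be set aside from the other 44 genes. It was listed at 0 in 9 libraries, lay below 1 FPKM in 1 more, and exceeded 1000 FPKM in 10 libraries, with replicates of the same group at both extremes. White-light asf1ab read 11300.3, 5280.2 and 0.1 FPKM, and white-light WT read 0, 313.4 and 2181 FPKM. Shaded WT read 0, 0 and 9672 FPKM. Its neighbour LHCB1.4 (AT2G34430) was never near 0, with 629.9 to 6851.8 FPKM over the 24 libraries, and read 2653, 3311 and 2779 FPKM in shaded WT against 1481, 1119 and 934.6 FPKM in white-light WT. No fold change is given for LHCB1.5, and it stays in the LHCB1 sum.

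**Figure D1:**
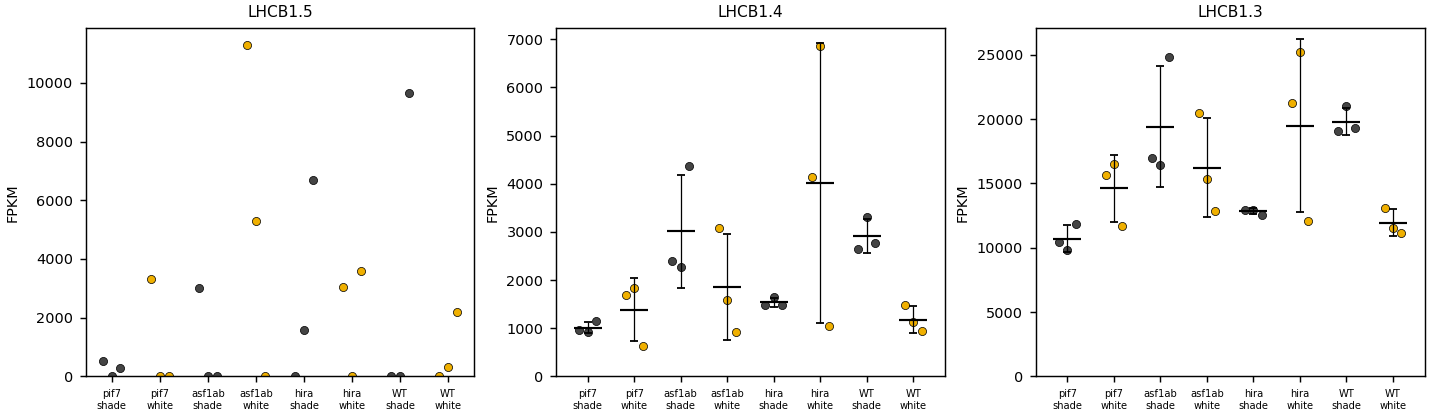
FPKM (y axis) of LHCB1.5, LHCB1.4 and LHCB1.3 in each of the 24 libraries, by group on the x axis, with shade in dark grey and white light in yellow; horizontal lines and error bars are the mean and SD of 3 libraries, drawn only for LHCB1.4 and LHCB1.3. LHCB1.5 lies at 0 in 9 libraries and reaches 11300.3 FPKM, while LHCB1.3 lies between 9836.9 and 25196.4 FPKM.

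The first comparison asks which of these genes 1 hr of shade changed in WT. LHCB1.2, LHCB1.3, LHCB2.2 and LHCB4.2 rose, with PSAE2 of photosystem I and PSBQ2 of photosystem II, while RBCS1B fell. LHCB1.3 stood at 19088, 20984 and 19335 FPKM in shaded WT, against 13121, 11557 and 11131 FPKM in white-light WT. The groups do not overlap, and the change was 0.73 ± 0.228 on the log2(FPKM + 1) scale (SE, limma, adjusted p = 0.0216). Here and below a gene was called at an adjusted p below 0.05, by Benjamini-Hochberg over the 19126 genes tested. LHCB2.2 (AT2G05070) read 1537, 1618 and 1691 FPKM in shade against 1001, 1053 and 1019 FPKM in white light, a rise of 0.66 ± 0.234 (adjusted p = 0.0442). LHCB4.2 (AT3G08940), a CP29 isoform, read 1631, 1759 and 1696 FPKM in shade against 1097, 1110.2 and 924.1 FPKM in white light, a rise of 0.70 ± 0.228 (adjusted p = 0.0271). All 3 shaded libraries of both genes lay above all 3 in white light. PSBQ2 (AT4G05180), a subunit of the oxygen-evolving complex, rose by 0.47 ± 0.166 (adjusted p = 0.0431), and PSAE2 (AT2G20260), a stromal subunit of photosystem I, by 0.43 ± 0.151 (adjusted p = 0.0405).

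Over the 45 genes in WT, 6 were called higher, beside 14.9% of all genes tested, and 1 lower, beside 11.4%. Both counts are close to or below the background share, so the count alone does not set these genes apart. The median change of the 45 genes was 0.19 and that of all genes tested 0.008, and in 25 of the 45 genes all shaded libraries lay above all white-light ones, beside 22% of all genes. LHCII genes had a median change of 0.60, LHCA genes 0.36, the minor antenna 0.34, PSA genes 0.18, PSB genes 0.07, and the RBCS and RCA group -0.21. Among genes that were not called, LHCB4.3 read -0.84 ± 0.316 (adjusted p = 0.0574) and PSBS (AT1G44575), the protein of photoprotective quenching, -0.37 ± 0.139 (adjusted p = 0.0528). The 7 calls are thin. Leaving out any single WT library gave 1 to 4 calls: 2, 1 and 3 without shade replicates 1, 2 and 3, and 3, 2 and 4 without white-light replicates 1, 2 and 3. Rescaling each library by the median of its ratios to the others gave 2 higher and 2 lower, and rescaling to an equal sum over nuclear genes 6 higher and 4 lower. With the WT libraries alone in the fit, 14 were higher and 3 lower. Through the shared spread, the number called was 11 without white-light pif7 replicate 3 and 13 without white-light hira replicate 3.

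In pif7 the same treatment went the other way for the antenna. Of the 45 genes, 28 fell and 0 rose, beside 13.6% of all genes tested called lower. LHCB1.1, all 3 LHCB2 genes, LHCB3 and LHCB1.2 fell most. LHCB1.1 (AT1G29920) stood at 1522, 1728 and 1723 FPKM in shaded pif7, against 5604, 5953 and 3227 FPKM in white-light pif7, a change of -1.52 ± 0.239 (adjusted p = 6.01e-05). LHCB2.3 (AT3G27690) read 226.9, 301.3 and 254.5 FPKM in shade against 907.8, 789.9 and 424.6 FPKM in white light, a change of -1.37 ± 0.339 (adjusted p = 0.00322). LHCB3 (AT5G54270) read 1016, 1156 and 1127 FPKM against 3145, 2999 and 1574 FPKM, a change of -1.16 ± 0.246 (adjusted p = 0.001). In each of the 3 genes the shaded libraries lie close together and below all white-light ones, and replicate 3 is the lowest in white light.

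The fall in pif7 ran through every functional group. Of the 9 LHCII genes 6 fell (median change -1.10), of the 4 LHCA genes 3 (median -0.51), and of the 5 minor antenna genes 2 (median -0.64). Of the 12 PSA genes 10 fell (median -0.45), of the 10 PSB genes 4 (median -0.39), and of the 5 RBCS and RCA genes 3 (median -0.45). All genes tested had a median of 0.119 in this contrast, and after rescaling by the median of ratios the median of all genes was 0.005 and that of the 45 genes -0.58, with 36 called lower. LHCA4 (AT3G47470), of the photosystem I antenna, read 2261, 2501 and 2368 FPKM in shaded pif7 against 4695, 4893 and 2922 FPKM in white-light pif7 (-0.77 ± 0.189, adjusted p = 0.00299). PSAK (AT1G30380), a photosystem I subunit next to its antenna, changed by -0.70 ± 0.187 (adjusted p = 0.00563). PSBY (AT1G67740), a small photosystem II subunit, changed by -0.57 ± 0.086 (adjusted p = 4.42e-05). All 3 had the same direction, and of the 3 only PSAK had shaded and white-light libraries that overlapped, through white-light replicate 3. PSBO1 and PSBO2, the manganese-stabilizing proteins, were not called, at -0.17 ± 0.11 and -0.20 ± 0.091 (adjusted p = 0.222 and 0.086). In 28 of the 45 genes all shaded pif7 libraries lay below all white-light ones, beside 18% of all genes. Without white-light pif7 replicate 1 the count was 13 and without replicate 2 it was 15, whereas without the low replicate 3 it was 39. With pif7 libraries alone in the fit, 11 were called lower.

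**Figure D2:**
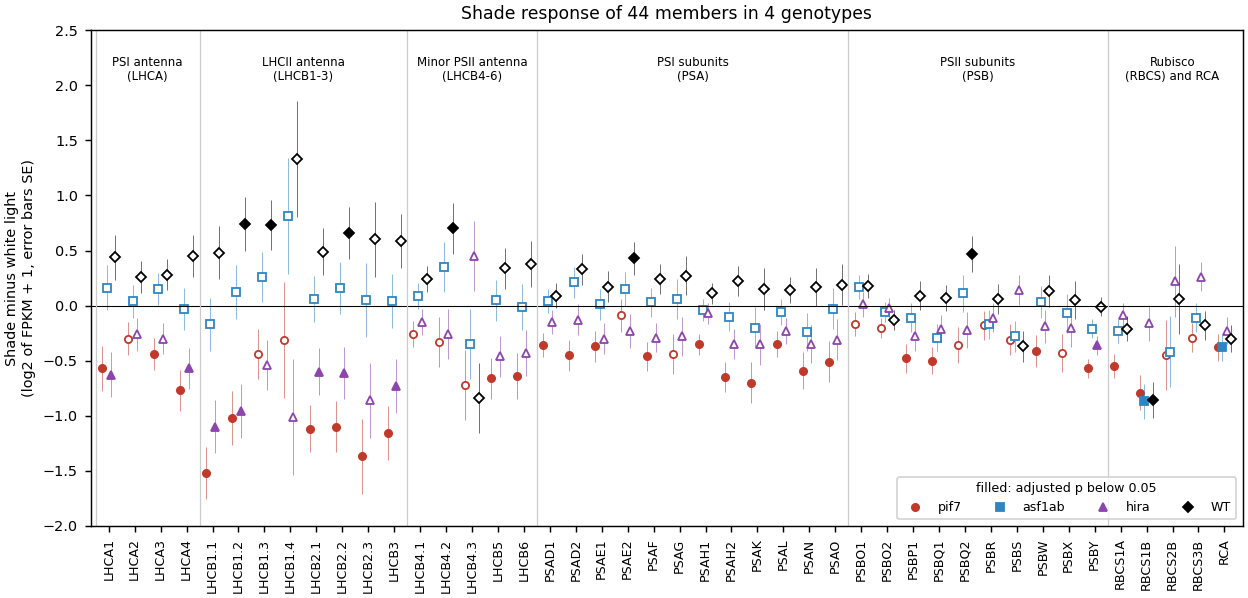
Change in shade against white light (y axis, log2 of FPKM + 1, error bars SE) of 44 genes (x axis, grouped by complex; LHCB1.5 left out) in pif7, asf1ab, hira and WT. Filled symbols passed an adjusted p of 0.05; LHCII genes reach -1.52 in pif7, while 3 of them are filled above 0 in WT.

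The difference between the pif7 and WT responses was itself tested: 18 of the 45 genes had a lower response in pif7, beside 2.98% of all genes tested; 0 had a higher one. The LHCII genes that passed were LHCB1.1, LHCB1.2, LHCB1.3, LHCB2.1, LHCB2.2, LHCB2.3 and LHCB3, with differences of -1.17 to -2.0. LHCB1.1 differed by -2.0 ± 0.338 (adjusted p = 0.00127), and its response in WT, 0.48 ± 0.239, was not called (adjusted p = 0.156). LHCB2.1 (AT2G05100) differed by -1.61 ± 0.302 (adjusted p = 0.00336). Outside LHCII, LHCA4 differed by -1.23 ± 0.268 (adjusted p = 0.0111), LHCB6 (AT1G15820), the CP24 protein, by -1.02 ± 0.294 (adjusted p = 0.0453) and LHCB5 (AT4G10340), the CP26 protein, by -1.0 ± 0.263 (adjusted p = 0.0309). PSAH2 (AT1G52230), the photosystem I subunit that docks LHCII, differed by -0.87 ± 0.191 (adjusted p = 0.0112). The RBCS and RCA group had 0 of 5 called and a median difference of -0.11. Its members' differences ran over -0.51 ± 0.454 (RBCS2B), -0.34 ± 0.158 (RBCS1A), -0.11 ± 0.187 (RBCS3B), -0.08 ± 0.172 (RCA) and 0.07 ± 0.229 (RBCS1B). The count was 8 to 11 when any 1 of the 6 WT libraries, the 3 shaded pif7 libraries or white-light pif7 replicates 1 and 2 was left out, and 34 without white-light pif7 replicate 3.

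**Figure D3:**
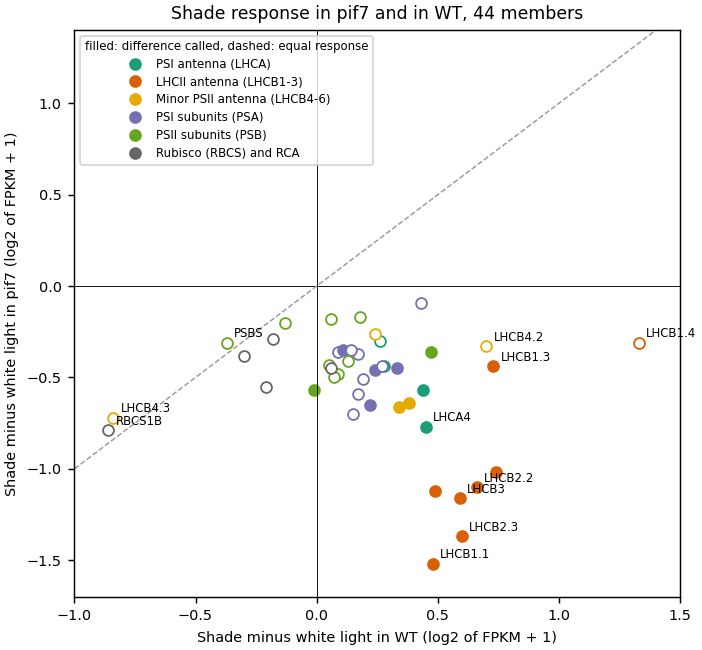
Change in shade against white light in pif7 (y axis) plotted over that in WT (x axis), both in log2 of FPKM + 1, for 44 genes coloured by complex; the dashed line marks an equal response and filled points a called difference. LHCII genes lie to the right of 0 and far below the line, and RBCS1B lies near it with -0.79 in pif7 and -0.86 in WT.

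The shaded groups were also compared directly. In shade 31 of the 45 genes were lower in pif7 than in WT, beside 6.31% of all genes tested, and in 39 genes all pif7 libraries lay below all WT libraries, beside 14.2%. LHCB2.1 stood at 730.4, 694.8 and 777.5 FPKM in shaded pif7 against 1759, 1856 and 2002 FPKM in shaded WT (-1.35 ± 0.213, adjusted p = 0.00034). LHCB2.2 read 582.7, 568.6 and 603.9 FPKM in shaded pif7 against 1537, 1618 and 1691 FPKM in shaded WT (-1.46 ± 0.234, adjusted p = 0.00037). The spread within each group is small beside this gap. All 4 LHCA genes, 7 of 9 LHCII genes, 4 of 5 minor antenna genes, 10 of 12 PSA genes and 6 of 10 PSB genes were lower, and 0 of the 5 RBCS and RCA genes. PSBS overlapped between the groups, at 1679, 1771 and 1673 FPKM in shaded pif7 against 1681, 1686 and 1753 FPKM in shaded WT, and LHCB4.3 was 0.65 ± 0.316 with no call. The count was 20 without shaded WT replicate 2, 17 without shaded pif7 replicate 1 and 19 without its replicate 3. Of 6 tested root markers, CASP1 (-1.32 ± 0.231) and MYB36 (-0.39 ± 0.131) were lower in shaded pif7 than in shaded WT. The 7 listed root markers summed to 40.5 to 42.0 FPKM in shaded pif7 and 52.9 to 57.0 FPKM in shaded WT. In white light CASP1 was lower in pif7 than in WT as well (-1.58 ± 0.231, adjusted p = 0.00146), and MYB36 was not called. There the 7 root markers summed to 41.4 to 55.5 FPKM in pif7 and 59.2 to 68.9 FPKM in WT. Of 6 shoot and stomatal markers, KAT1, which encodes a guard-cell potassium channel, was lower in shaded pif7 (-1.92 ± 0.115, adjusted p = 5.59e-10), at 5.3, 4.99 and 5.42 FPKM against 21.52, 23.91 and 22.61 FPKM in shaded WT. KAT1 rose in shade in asf1ab, hira and WT, and its pif7 response was lower than that of WT by a called difference of -2.13 ± 0.163. The 6 summed to 89.5 to 90.7 FPKM in shaded pif7 and 93.9 to 99.0 FPKM in shaded WT, and the part of these markers in the result was not tested.

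In white light pif7 and WT could not be separated on these genes. The number called was 0 of the 45, beside 0.397% of all genes called either way, and limma gave 3 genes an unadjusted p under 0.05, all higher. The median difference was 0.15 against -0.02 over all genes, and it was 0.04, 0.08 and 0.3 without white-light pif7 replicates 1, 2 and 3. LHCB1.1 read 5604, 5953 and 3227 FPKM in white-light pif7 against 3175, 3325 and 3431 FPKM in white-light WT, groups that overlap only through pif7 replicate 3. Rescaling, the other filters and leaving out any single library also gave 0 calls.

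The RBCS copies, which encode isoforms of the Rubisco small subunit, were followed one by one. RBCS1B (AT5G38430) read 3157, 3819 and 3425 FPKM in shaded pif7 against 5263, 6770.1 and 5982 FPKM in white-light pif7 (-0.79 ± 0.162, adjusted p = 0.000774). In asf1ab it read 3843, 4388 and 2869 FPKM in shade against 6139, 8067 and 5993 FPKM in white light (-0.87 ± 0.162, adjusted p = 0.000324). In WT it read 2699, 3275 and 2649 FPKM in shade against 5881, 5056 and 4686 FPKM in white light (-0.86 ± 0.162, adjusted p = 0.000494). It thus fell in these 3 genotypes, with no overlap between shade and white light in any of them. The sum of RBCS1B, RBCS2B and RBCS3B was called lower in shade in pif7 only (-0.46 ± 0.141, adjusted p = 0.0139). That sum had uncalled values of -0.35, 0.16 and -0.30 in asf1ab, hira and WT. In hira RBCS1B read 4579, 3662 and 4061 FPKM in shade against 4751, 4047 and 4928 FPKM in white light, which overlap (-0.16 ± 0.162, adjusted p = 0.474). The difference of that response from the WT response, 0.70 ± 0.229, was not called (adjusted p = 0.119). RBCS3B, its near neighbour, was called in none of the 4 shade responses, at -0.29, -0.11, 0.26 and -0.18 in pif7, asf1ab, hira and WT. RBCS1A fell in pif7 (-0.55 ± 0.112, adjusted p = 0.000693), with uncalled values of -0.23, -0.09 and -0.21 in asf1ab, hira and WT, and its pif7 response was not called different from that of WT (-0.34 ± 0.158, adjusted p = 0.184). RCA (AT2G39730) fell in pif7 and in asf1ab, by -0.38 ± 0.122 in each (adjusted p = 0.016 in pif7 and 0.0216 in asf1ab), and read -0.30 ± 0.122 in WT (adjusted p = 0.0757).

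**Figure D4:**
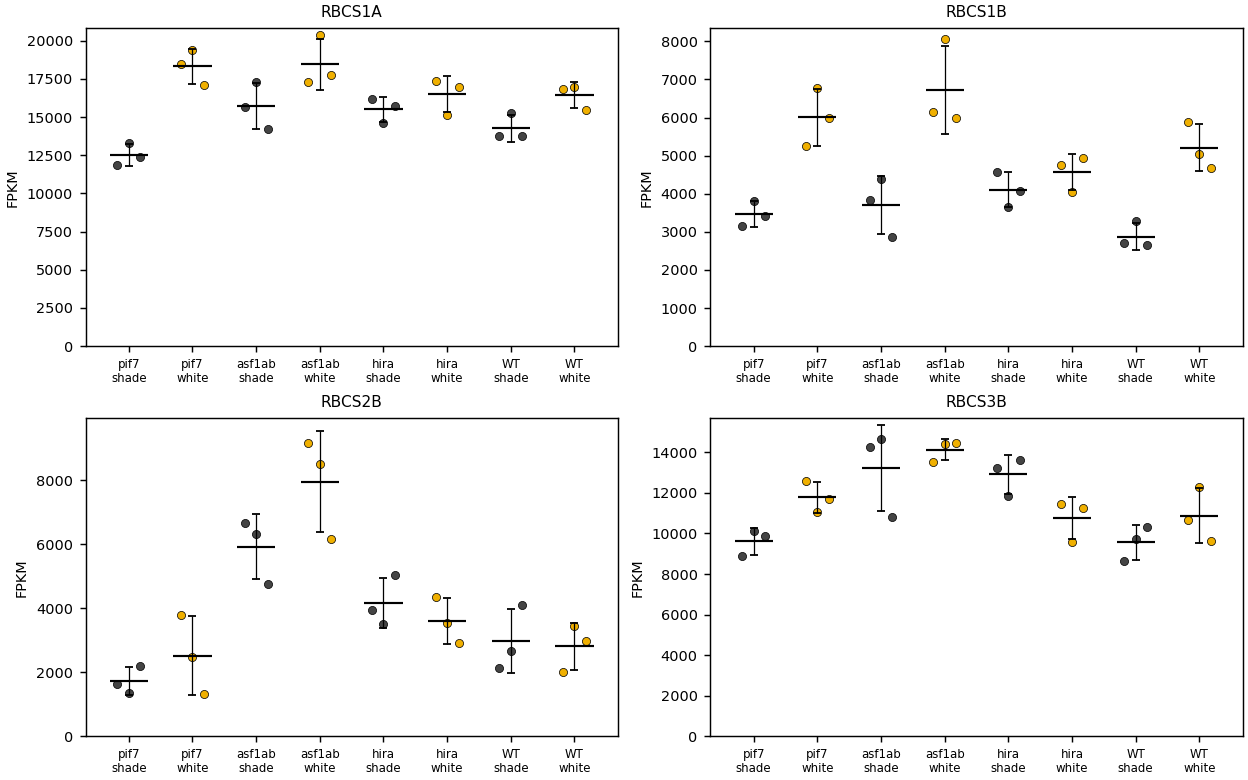
FPKM (y axis) of the 4 RBCS loci in each library by group (x axis), with shade in dark grey and white light in yellow; horizontal lines and error bars are the mean and SD of 3 libraries. RBCS1B is lower in shade in pif7, asf1ab and WT with no overlap, and RBCS2B is highest in asf1ab, up to 9164 FPKM.

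In asf1ab the antenna genes showed no called shade response. Only RBCS1B and RCA were called, both lower, beside 12.3% of all genes called lower, and the median change of the 45 genes was -0.01. LHCB2.2 read 1639, 1543 and 2202 FPKM in shaded asf1ab against 1851, 1467 and 1455 FPKM in white-light asf1ab, with shade replicate 3 the highest of all. That replicate was the highest of its group for 35 of the 45 genes. The difference of the asf1ab response from that of WT was called for 0 of the 45 genes, beside 0.46% of all genes called either way, with 1 gene at an unadjusted p under 0.05 by limma. The median of these differences was -0.22. Leaving out shade replicate 1, shade replicate 3 or white-light replicate 1 of asf1ab gave 1 call in shade, as did a fit of the asf1ab libraries alone.

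Part of these genes had a higher level in white-light asf1ab than in white-light WT. LHCB1.2, LHCB2.3, LHCB4.1, PSAH1, PSAH2, PSBR, PSBY, RBCS2B and RBCS3B, were higher, a count of 9 of 45 beside 6.26% of all genes tested. In 33 of the 45 genes all asf1ab libraries lay above all WT ones, beside 10.8% of all genes, and the median difference was 0.34 against -0.067 over all genes. RBCS2B (AT5G38420) stood out, at 9164, 8525 and 6167 FPKM in white-light asf1ab against 2012, 3448 and 2982 FPKM in white-light WT (1.51 ± 0.321, adjusted p = 0.00224). In shade it read 6678, 6331 and 4769 FPKM in asf1ab against 2145, 2669 and 4098 FPKM in WT (1.03 ± 0.321, adjusted p = 0.0236). The groups do not overlap in either light. LHCB1.2 (AT1G29910) read 2751, 2161 and 1918 FPKM in white-light asf1ab against 1162, 990.3 and 1198 FPKM in white-light WT (1.02 ± 0.245, adjusted p = 0.00567). PSAH2 read 2492, 2564 and 1912 FPKM against 1582, 1653 and 1569.8 FPKM (0.52 ± 0.135, adjusted p = 0.00881). In shade 3 genes were higher in asf1ab than in WT, RBCS2B, RBCS3B (0.46 ± 0.132, adjusted p = 0.0148) and PSBO2 (AT3G50820, 0.32 ± 0.091, adjusted p = 0.0134), beside 9.13% of all genes called higher.

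Other values moved with asf1ab. Of 6 tested root markers, 4 were lower in white-light asf1ab than in WT, with CASP1 at -1.25 ± 0.231, WER at -0.66 ± 0.197 and SHR at -0.53 ± 0.128, and SCR was higher; in shade 3 were lower. The 7 listed root markers summed to 44.1 to 48.9 FPKM in white-light asf1ab and 59.2 to 68.9 FPKM in white-light WT, and to 29.8 to 40.4 FPKM in shaded asf1ab and 52.9 to 57.0 FPKM in shaded WT. Of 6 shoot and stomatal markers 2 were lower in asf1ab in both lights and 0 were higher. STM, a shoot meristem gene, differed by -0.95 ± 0.115 in white light and -0.8 ± 0.115 in shade, and KAT1, a guard-cell potassium channel, by -0.36 ± 0.115 and -0.72 ± 0.115. The 6 summed to 86.3 to 92.0 FPKM in white-light asf1ab and 93.4 to 103.5 FPKM in white-light WT, and to 69.5 to 80.0 FPKM in shaded asf1ab and 93.9 to 99.0 FPKM in shaded WT. Replicate 1 of white-light asf1ab held 2.309% plastid transcripts, against 1.123 and 0.988% in its other libraries. The part of these values in the result was not tested. The count of 9 was 4 without white-light asf1ab replicate 1, 3 without its replicate 2 and 3 without white-light WT replicate 3, and it was 20 without white-light pif7 replicate 3 or hira replicate 3, which enter through the shared spread. In shade the 3 calls were 0 without WT replicate 1 and 1 without asf1ab replicate 1 or 2. With asf1ab and WT libraries of white light alone, 5 were called, and 18 with both white-light hira libraries of high ribosomal RNA left out.

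The hira response turned on which white-light libraries were used. Of the 45 genes 8 fell in shade and 0 rose, beside 9.55% of all genes called lower: LHCB1.1, LHCB1.2, LHCB2.1, LHCB2.2, LHCB3, LHCA1, LHCA4 and PSBY. LHCB1.1 read 2627, 2658 and 2972 FPKM in shaded hira against 7166, 7609 and 3786 FPKM in white-light hira (-1.10 ± 0.239, adjusted p = 0.00134). LHCA1 (AT3G54890) read 2898, 2871 and 2914 FPKM in shade against 5162, 5633 and 3066 FPKM in white light (-0.63 ± 0.204, adjusted p = 0.0225). White-light replicates 1 and 2 are far above replicate 3, which lies closest to the shaded libraries. In 6 of the 45 genes all shaded libraries lay below all white-light ones, beside 12.7% of all genes. The median change was -0.26 against 0.137 over all genes tested. Without both white-light replicates 1 and 2, an alternative chosen after seeing the data, 0 were called and the median was 0.03. Without either of them alone 3 were called, without replicate 3 there were 28, without shaded replicates 1, 2 or 3 there were 3, 4 or 5, and without white-light pif7 replicate 3 there were 17. With hira libraries alone 1 was called, and after rescaling by the median of ratios, which put the median of all genes at 0.0 and that of the 45 at -0.42, 15.

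White-light hira against white-light WT showed the same dependence. LHCA3, LHCA4, LHCB1.1, LHCB1.2, LHCB2.1, LHCB2.2, LHCB3, LHCB4.1 and LHCB4.2 were higher, 9 of 45 beside 2.61% of all genes tested. LHCB1.2 read 3028, 3472 and 1523 FPKM in white-light hira against 1162, 990.3 and 1198 FPKM in white-light WT (1.18 ± 0.245, adjusted p = 0.00468), with no overlap. LHCB2.1 read 2632, 2685 and 1567 FPKM against 1304, 1433 and 1271 FPKM (0.74 ± 0.213, adjusted p = 0.0315), also with no overlap. None of the 5 RBCS and RCA genes was called, and their median difference was 0.00. The 2 hira libraries with the high values are those with 8.322 and 7.271% ribosomal RNA; without both, 0 genes were called and the median difference of the 45 genes was 0.02 in place of 0.33. The count was 1 without either of them, 27 without hira replicate 3, 2, 3 and 2 without WT replicates 1, 2 and 3, 17 without white-light pif7 replicate 3, and 0 with these 2 groups alone. Median of ratios scaling put the median of all genes at 0.0, in place of -0.117, and that of the 45 at 0.47. Of 6 tested root markers 1, MYB36, was lower in white-light hira, and the 7 listed summed to 48.3 to 54.5 FPKM in white-light hira and 59.2 to 68.9 FPKM in white-light WT; their part in the result was not tested.

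In shade, few single genes were called between hira and WT. RBCS1B (0.51 ± 0.162, adjusted p = 0.0463) and RBCS3B (0.44 ± 0.132, adjusted p = 0.0389) were higher in hira, beside 4.96% of all genes called higher, and LHCB1.1 was lower (-0.75 ± 0.239, adjusted p = 0.0491), beside 6.59% called lower. LHCB1.1 read 2627, 2658 and 2972 FPKM in shaded hira against 4635, 5028 and 4197 FPKM in shaded WT. In 27 of the 45 genes all hira libraries lay below all WT libraries, 8 of them LHCII genes, beside 20.1% of all genes. Median of ratios scaling gave 1 higher and 0 lower, equal nuclear sums 2 higher and 0 lower, and a fit of these 2 groups alone gave 2 higher and 10 lower. The 3 calls were 0 without WT replicate 1 or 3 or hira replicate 1 or 3 of shade, and 1 without shaded WT replicate 2, shaded hira replicate 2, any shaded pif7 library, shaded asf1ab replicate 1 or white-light WT replicate 2. The hira response itself was lower than that of WT for LHCB1.2 (-1.7 ± 0.346, adjusted p = 0.0206) and LHCB1.1 (-1.58 ± 0.338, adjusted p = 0.0261), 2 of 45 beside 0.685% of all genes. Without white-light hira replicates 1 and 2 these calls were 0, and without replicate 3 there were 25. They were also 0 without either of replicates 1 and 2 alone, shaded WT replicate 1 or 2, white-light WT replicate 2 or shaded hira replicate 2, 1 without white-light WT replicate 1 or shaded hira replicate 1, 10 without white-light pif7 replicate 3 and 6 without shaded asf1ab replicate 3.

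Sums over the copies, which do not change when a read is moved between copies of the sum, were tested in the same fit. The LHCB1 sum still carries the jumps of LHCB1.5: LHCB1.4 and LHCB1.5 together read 2653, 3311 and 12451 FPKM in shaded WT. Summed LHCB2 was 1580.2 ± 49.8 FPKM in shaded pif7 against 3688 ± 1260 FPKM in white-light pif7 (SD, n = 3 each; limma change -1.16 ± 0.242, adjusted p = 0.000901). In WT it was 4262 ± 286 FPKM in shade against 2873 ± 179 FPKM in white light, not called (0.57 ± 0.242, adjusted p = 0.0925), although all 3 shaded libraries were higher. The difference between these responses was -1.73 ± 0.342 (adjusted p = 0.0055). Summed LHCB1 rose in shaded WT, at 28219, 31458 and 37626 FPKM against 18939.9, 17305 and 18874 FPKM in white light (0.81 ± 0.275, adjusted p = 0.0344). In pif7 the LHCB1 sum read 14187, 13234 and 15856 FPKM in shade against 27980.3, 26281 and 16748 FPKM in white light (-0.68 ± 0.275, adjusted p = 0.0512), with no overlap and no call. The response of the LHCB1 sum in pif7 was lower than that in WT by a called difference of -1.49 ± 0.388 (adjusted p = 0.0296). For LHCB1.1, LHCB1.2 and LHCB1.3 alone, without the 2 copies on chromosome 2, the sum changed by -0.67 ± 0.23 in pif7 (adjusted p = 0.0254) and by 0.68 ± 0.23 in WT (adjusted p = 0.0335), both called. In hira it also fell (-0.68 ± 0.23, adjusted p = 0.0271), as did summed LHCB2 (-0.66 ± 0.242, adjusted p = 0.0411). The LHCB2 libraries of hira overlapped, at 3186, 3142 and 3568 FPKM in shade against 6421, 6568 and 3313 FPKM in white light. The response of the LHCB1.1, LHCB1.2 and LHCB1.3 sum differed from that of WT by -1.35 ± 0.326 in pif7 (adjusted p = 0.0203) and -1.36 ± 0.326 in hira (adjusted p = 0.0442). White-light hira replicates 1, 2 and 3 read 31411, 36277 and 17361 FPKM for this sum, against 16812 to 16937 FPKM in shaded hira.

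Summed RBCS fell in shaded pif7, at 25505, 28578 and 27837 FPKM against 40073, 39668 and 36119.8 FPKM in white-light pif7 (-0.50 ± 0.131, adjusted p = 0.00501). Its change was -0.30, 0.05 and -0.25 in asf1ab, hira and WT, not called. The 3 tandem copies on chromosome 5 summed to 28835, 30996 and 26622 FPKM in white-light asf1ab against 18562, 20819.5 and 17301 FPKM in white-light WT (0.61 ± 0.141, adjusted p = 0.00412). In shade they summed to 24769, 25377 and 18455 FPKM in asf1ab against 13480.0, 15673 and 17051 FPKM in WT (0.56 ± 0.141, adjusted p = 0.00627). The higher RBCS level of asf1ab therefore holds for the cluster as a whole in both lights. In shaded hira this sum was higher than in shaded WT by 0.46 ± 0.141 (adjusted p = 0.0395). Summed LHCB1 and summed LHCB2 were higher in white-light hira than in white-light WT, by 0.85 ± 0.275 and 0.85 ± 0.242 (adjusted p = 0.0494 and 0.029). White-light hira replicate 3 was the lowest of its group in both sums. Over all 13 comparisons 25 of 117 values of 9 sums were called, 8 higher and 17 lower; median of ratios scaling gave 5 higher and 20 lower. Without shaded pif7 replicate 1 the number was 12, without shaded WT replicate 2 or 3 or white-light WT replicate 1 or 2 it was 16, without white-light pif7 replicate 3 it was 39 and without white-light hira replicate 3 it was 51.

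**Figure D5:**
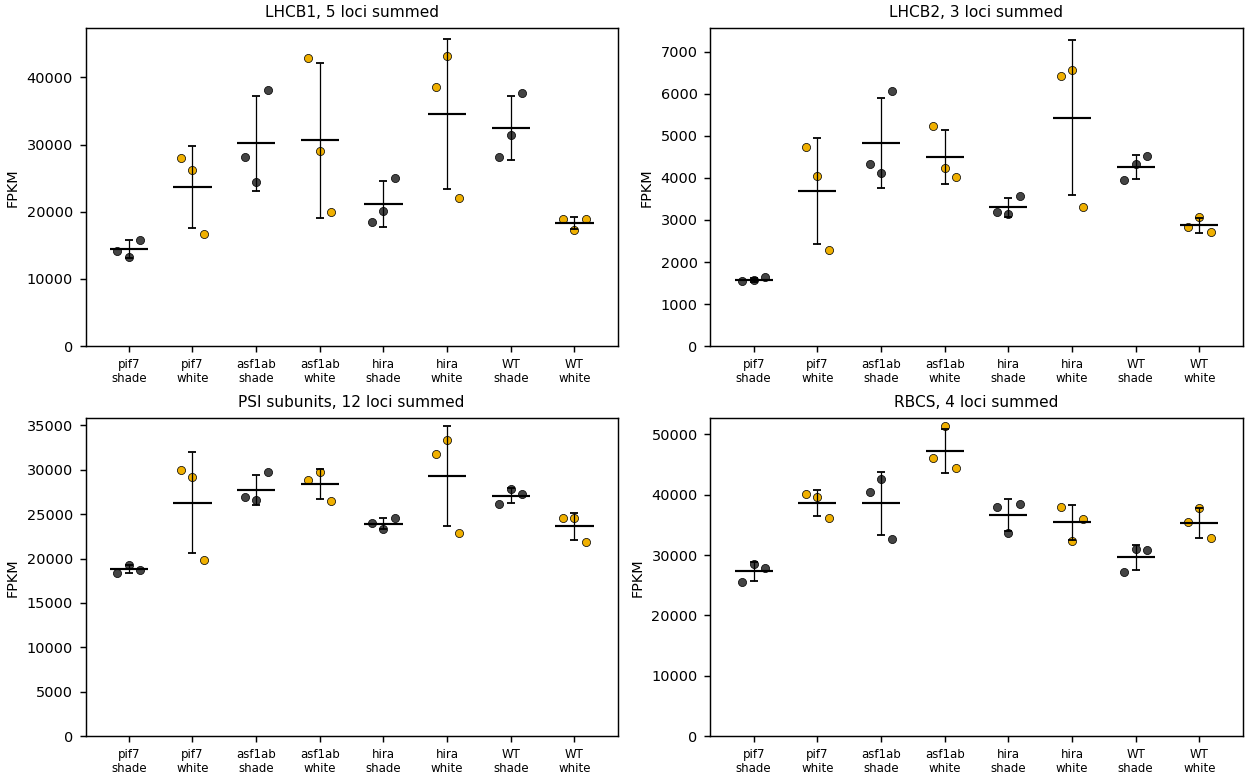
Summed FPKM (y axis) of the LHCB1, LHCB2, PSI subunit and RBCS genes in each library by group (x axis), with shade in dark grey and white light in yellow; horizontal lines and error bars are the mean and SD of 3 libraries. Shaded pif7 has the lowest mean in all 4 panels, and LHCB2 reaches 6568 FPKM in white-light hira replicate 2 against 3313 FPKM in replicate 3.

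The lists of Calvin cycle and chlorophyll synthesis genes held more genes that fell than rose in WT. Of all genes tested, 13.6% were called lower in shade in pif7, 12.3% in asf1ab, 9.55% in hira and 11.4% in WT. Of 14 genes of the Calvin cycle, 8 fell in shaded pif7, 8 in asf1ab, 2 in hira and 8 in WT, and 0 rose in any of them. FBA1, a plastid aldolase, changed by -0.88 ± 0.103, -0.86 ± 0.103, -0.61 ± 0.103 and -0.57 ± 0.103 in pif7, asf1ab, hira and WT, all 4 called. CP12-2, a small regulator of Calvin cycle enzymes, changed by -0.28 ± 0.176, -0.62 ± 0.176, -0.06 ± 0.176 and -0.74 ± 0.176 in the same order, called in asf1ab and WT. Of 11 tested genes of chlorophyll synthesis, 7 fell in pif7, 6 in asf1ab, 5 in hira and 4 in WT, and CHLD, a magnesium chelatase subunit, rose in asf1ab and WT. HEMA1, which starts tetrapyrrole synthesis, changed by -0.79 ± 0.087 in pif7, -0.47 ± 0.087 in asf1ab, -0.69 ± 0.087 in hira and -0.41 ± 0.087 in WT. CAO, which makes chlorophyll b for the antenna, was the 1 gene of that list with a called difference in response between pif7 and WT (-0.74 ± 0.196, adjusted p = 0.0315). In that contrast 2.98% of all genes tested were called lower. CAO read 81.26, 79.51 and 81.8 FPKM in shaded pif7 against 148.5, 150.21 and 118.77 FPKM in white-light pif7, and 107.08, 128.11 and 115.37 FPKM in shaded WT against 127.23, 123.1 and 106.89 FPKM in white-light WT.

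Of 10 regulators of photosynthesis genes, 4 fell in pif7, 6 in asf1ab, 4 in hira and 8 in WT, with 0 rising. The shares of all genes tested called lower were 13.6, 12.3, 9.55 and 11.4% in the same order. SIG5, a plastid sigma factor, changed by -1.32 ± 0.193, -1.61 ± 0.193, -2.02 ± 0.193 and -1.31 ± 0.193 in pif7, asf1ab, hira and WT. HY5, a bZIP factor of light signalling, changed by -0.95, -0.78, -0.79 and -0.86 (SE 0.122 each). GLK1, a factor known to activate antenna genes, changed by -0.62, -0.85, -0.98 and -0.38 (SE 0.127 each), all called. These 3 regulators and SIG1 were called lower in all 4 genotypes, and GLK2 and SIG2 in none. The part of the regulators in the antenna values was not tested. The difference of the pif7 response from that of WT was called for 0 of the 10, beside 2.98% of all genes tested called lower. With so low a share, a count of 0 does not set the regulators apart. In shade CGA1 (0.77 ± 0.176, adjusted p = 0.00699) and SIG6 (0.3 ± 0.092, adjusted p = 0.0296) were higher in pif7 than in WT. CGA1 changed in shade by -0.02 ± 0.176 in pif7 and -0.63 ± 0.176 in WT.

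Clock genes changed in the same contrast. Of 10 clock genes, CCA1, LHY and PRR9 had a lower shade response in pif7 than in WT, by -1.01 ± 0.206, -0.97 ± 0.153 and -1.22 ± 0.344 (adjusted p = 0.00727, 0.000636 and 0.0407), and TOC1 a higher one (0.76 ± 0.185, adjusted p = 0.0211). Of all genes tested, 2.98% had a called lower response in pif7. Part of the LHY difference lay in white light, where LHY was higher in pif7 than in WT (0.56 ± 0.108, adjusted p = 0.0192). In shade LHY was lower in pif7 than in WT (-0.4 ± 0.108, adjusted p = 0.0167). CCA1, PRR9 and TOC1 were not called between pif7 and WT in white light. CCA1, a morning factor of the clock, read 40.98, 43.3 and 43.32 FPKM in shaded pif7 against 113.85, 118.35 and 99.31 FPKM in white-light pif7. In WT it read 65.31, 75.01 and 68.64 FPKM in shade against 92.55, 97.9 and 77.06 FPKM in white light. In hira 5 of the 10 fell in shade, with CCA1 at -0.74 ± 0.146 and PRR9 at -1.35 ± 0.243, and 3 rose: ELF3, TOC1 and LUX. In asf1ab, which had no called antenna response, CCA1 (-0.95 ± 0.146), ELF4 and LHY (-0.59 ± 0.108) were called lower. LUX was called higher in shade in pif7, asf1ab, hira and WT, by 1.21, 0.87, 0.93 and 0.77. The part of the clock in the antenna values was not tested.

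The upstream sequences were read for short motifs in the 250 bases before each annotated gene start, on both strands. CCAATC, which holds a CCAAT core, was found in 12 of the 45 genes (26.7%) and in 10.2% of 27443 such windows genome-wide. It occurred in 3 of 4 LHCA and 5 of 9 LHCII genes, in 0 of 12 PSA genes, and in 1 of 10 PSB genes. The G-box CACGTG, a core known to be bound by PIF and HY5 factors, was found in 9 genes (20.0%) against 6.5% of all windows, and the I-box GATAAG in 11 (24.4%) against 12.3%. The PIF-binding E-box CACATG was found in 4 genes (8.9%) against 11.1%, AAAAATCT, a CCA1 site, in 5 (11.1%) against 6.7%, and the evening element AAAATATCT in 0 against 2.4%. TATAAA was found in 19 genes (42.2%) against 47.3% of all windows. No motif searched contains another. These are letter matches in 1 window and say nothing of binding. Of the 18 genes with a called difference in response between pif7 and WT, 5 hold a G-box and 8 hold CCAATC, against 4 and 4 of the 27 genes with no called difference. TATAAA went the other way, in 4 of the 18 and 15 of the 27. The I-box was in 6 and 5, CACATG in 3 and 1, AAAAATCT in 2 and 3, and the evening element in 0 and 0. As single cases, LHCB1.1, LHCB1.2 and LHCB3 had a called difference and hold neither a G-box nor CCAATC. LHCB4.1 holds both with no called difference. Genes with no call may still differ, since 35 of the 45 had a lower response in pif7 at an unadjusted p under 0.05 by limma. The part of these motifs in the response was not tested. Among the 9 LHCII genes, 1 holds a G-box. LHCB2.3 and LHCA4 are shown as examples that hold both a G-box and CCAATC, and RBCS1B as one that holds neither. Their upstream bases follow from RefSeq's TAIR10.1 annotation, 5′ to 3′ toward the gene, with G-box and CCAATC matches on either strand in capitals.
LHCB2.3, chr3:10255656-10255905, plus strand: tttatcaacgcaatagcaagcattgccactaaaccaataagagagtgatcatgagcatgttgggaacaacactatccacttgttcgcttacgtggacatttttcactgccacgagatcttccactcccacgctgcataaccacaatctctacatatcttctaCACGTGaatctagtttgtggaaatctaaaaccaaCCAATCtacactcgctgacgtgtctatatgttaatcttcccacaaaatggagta
LHCA4, chr3:17495034-17495283, minus strand: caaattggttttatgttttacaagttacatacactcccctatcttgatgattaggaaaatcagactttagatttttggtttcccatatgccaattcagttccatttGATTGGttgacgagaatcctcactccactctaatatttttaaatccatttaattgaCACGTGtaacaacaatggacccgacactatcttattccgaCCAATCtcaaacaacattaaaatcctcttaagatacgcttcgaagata
RBCS1B, chr5:15385321-15385570, minus strand: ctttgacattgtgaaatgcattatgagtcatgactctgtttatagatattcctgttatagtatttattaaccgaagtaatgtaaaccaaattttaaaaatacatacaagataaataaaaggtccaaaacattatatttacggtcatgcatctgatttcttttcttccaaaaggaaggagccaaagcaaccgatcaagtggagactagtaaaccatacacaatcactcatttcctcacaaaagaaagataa

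Across all 24 libraries most of the 45 genes varied together. The log2(FPKM + 1) of 28 of them correlated above 0.9 (Pearson r) with the mean of the 45 standardised genes, to which each contributes, and 33 correlated above 0.8. RBCS1B (0.247), PSBS (0.017), LHCB1.5 (0.016) and LHCB4.3 (-0.141) did not follow that mean. The tested genes outside the 45 that were most like the mean were TL29 (r = 0.962), a thylakoid lumen protein, PSBTN (0.929), a photosystem II subunit, AT2G34620 (0.919), PSI-P (0.911), also known as CURT1B of the thylakoid, and PETE2 (0.91), a plastocyanin. AT2G42220 (0.906), IAA8 (0.894), AT3G57030 (0.891), SGB1 (0.886) and AT3G12320 (0.869) followed. These correlations run over 24 libraries of 8 groups that share scaling and are descriptions only.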

How the data were processed

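RNA sequencing values of 24 libraries were used as the authors deposited them, as FPKM per gene in 1 table of 33020 loci. Per the submitters' processing notes, FastQC, cutadapt, STAR, HTSeq and DESeq2 were used with the TAIR10 genome. The sources used here give neither tool versions nor the derivation of FPKM. The members and lists were chosen with earlier results of these data known. Values were transformed to log2(FPKM + 1), which understates changes of weak genes, and 19126 genes averaging 1 FPKM or more were fitted with limma 3.58.1 in R 4.3.3 (8 group means, eBayes with trend). P-values were adjusted by Benjamini-Hochberg over these genes in each of 13 contrasts, and a gene was called at an adjusted p below 0.05. For sums, copies were replaced by their summed FPKM in the same fit. Errors of changes are standard errors. Depth was estimated from steps of low FPKM in genes of up to 900 bases with at most 6 reads. The plan was to name the largest called changes, up to 4 of a photosynthesis list and 3 of the clock, root and shoot lists. In places further clock, root and regulator genes are named. Sequences and positions are from TAIR10.1 (RefSeq), used by locus name; 37 of the 45 symbols match its spelling exactly and the others differ only in spelling. The fit was tested on simulated data for shade against white light in pif7, with 50 changed genes of each size. It recovered 44% of changes of 0.5 log2 units, 86% of 1, and 100% of 2 and of 3, and called 5 unchanged genes. Small changes can thus go uncalled. Python 3.11.15, numpy 2.4.6, pandas 2.3.3 and matplotlib 3.10.9 made tables and figures.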

Additional observations from a re-analysis of the deposited data

Results flagged for a closer look

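The shade response of pif7 differed from that of WT, by the limma test of the difference itself, in 18 of the 45 genes. The differences, on the log2(FPKM + 1) scale with pif7 minus WT, were -2.0 for LHCB1.1, -1.76 for LHCB1.2, -1.17 for LHCB1.3, -1.61 for LHCB2.1, -1.75 for LHCB2.2, -1.97 for LHCB2.3 and -1.75 for LHCB3. They were -1.0 for LHCB5 and -1.02 for LHCB6 in the minor antenna, and -1.01 for LHCA1, -0.71 for LHCA3 and -1.23 for LHCA4 in the photosystem I antenna. Photosystem I subunits gave -0.79 for PSAD2, -0.7 for PSAF, -0.46 for PSAH1 and -0.87 for PSAH2, and photosystem II subunits -0.83 for PSBQ2 and -0.56 for PSBY. The shade response of hira differed from that of WT by -1.58 for LHCB1.1 and -1.7 for LHCB1.2, which rests on white-light hira replicates 1 and 2.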

How the results depend on the processing

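The numbers are counts of the 45 genes called, with the count as reported in brackets. For shade in WT (7), median of ratios scaling gave 4, no filter 2, the compared groups alone 17, a change of at least 1 log2 unit 0, and both hira libraries of high ribosomal RNA left out 13. For shade in pif7 (28), the groups alone gave 11 and 1 log2 unit 6. For shade in asf1ab (2), no filter gave 1, the groups alone 1 and 1 log2 unit 0. For shade in hira (8), median of ratios scaling gave 15, no filter 3, the groups alone 1, 1 log2 unit 1 and both hira libraries left out 0. LHCB2.2 then read 0.01 in shaded against white-light hira. For asf1ab against WT in white light (9), no filter gave 5, the groups alone 5, 1 log2 unit 3 and both hira libraries left out 18. For hira against WT in white light (9), the same settings gave 2, 0, 1 and 0. For pif7 against WT in shade (31), no filter gave 20 and 1 log2 unit 6. For asf1ab against WT in shade (3), 1 log2 unit gave 1. For hira against WT in shade (3), median of ratios scaling gave 1, pseudocount 0.1 gave 0, no filter 0, 1 log2 unit 0 and the groups alone 12, with 2 higher and 10 lower in place of 2 and 1. For the pif7 minus WT response (18), no filter gave 10 and 1 log2 unit 10. For the hira minus WT response (2), no filter gave 1, a mean FPKM of at least 5 gave 4, the groups alone 0 and both hira libraries left out 0. Where no cause is given by fewer libraries or genes in a setting, the cause was not tested.

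Leaving out 1 library at a time gave 1 to 13 for shade in WT, 13 to 39 in pif7, 1 to 3 in asf1ab and 3 to 28 in hira. It gave 0 to 0 for pif7, 3 to 20 for asf1ab and 1 to 27 for hira against WT in white light, and 17 to 35, 0 to 4 and 0 to 4 in shade. The response differences gave 8 to 34 in pif7, 0 to 0 in asf1ab and 0 to 25 in hira, and the sums 12 to 51. With shaded WT replicate 2 left out, shade in WT had 0 higher and 1 lower, and without white-light WT replicate 3 it had 1 higher and 3 lower.

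With a replicate block, the count for hira against WT in shade was 1, and no other of these counts moved by over 1.5 times (30 for shade in pif7 and 19 for the pif7 minus WT response). By the rule used, numbers were not taken to pair libraries, since 9 of 30 pairs had correlated deviations over 0.1 (range -0.114 to 0.221), although replicate 3 was the lowest library for most of the 45 genes in all 4 white-light groups. Over 172 single results and all settings, 4932 values kept direction and side of the threshold, 790 lost the call, 27 gained one, 10 moved and 1 turned. Counting error weighs most on LHCB4.3, the lowest of the 45 genes, and how shared reads between copies were counted was not tested.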

Other observations

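Genes of the early light-induced proteins, relatives of the antenna that accumulate under light stress, differed between white-light replicates of the same group. They are given here because their values were seen to do so. ELIP2 read 10.9, 7.47 and 81.84 FPKM in white-light hira, 7.47, 17.73 and 49.44 FPKM in white-light asf1ab, 50.3, 49.87 and 55.28 FPKM in white-light pif7, and 58.43, 56.29 and 57.58 FPKM in white-light WT. ELIP1 read 14.54, 9.21 and 48.3 FPKM in white-light hira, 6.49, 13.16 and 34.82 FPKM in white-light asf1ab, and 22.51, 26.26 and 37.72 FPKM in white-light pif7. In each of these 3 mutants replicate 3 was the highest. That replicate was lowest for 41, 28 and 38 of the 45 photosynthesis genes in white-light pif7, asf1ab and hira. In white-light WT replicate 3 was lowest for 38 genes too, while ELIP2 stayed at 56.29 to 58.43 FPKM. A link between these values was not tested.

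Of 12 genes of electron transport and the ATP synthase, 5 fell in shaded pif7, 3 in asf1ab, 1 in hira and 2 in WT. The shares of all genes tested called lower were 13.6, 12.3, 9.55 and 11.4% in the same order. The counts in hira and WT are thus near those shares. PETE1, a plastocyanin, rose in asf1ab (0.61) and in WT (0.79).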
